A study of Populus tremula x Populus alba with 64 samples.

Results

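The 11-day stems of AI-plants, hybrid poplar cuttings whose leaves were sprayed with the auxin transport inhibitor N-1-naphthylphthalamic acid (NPA), were compared with the stems of control-AI plants. The comparison used 5 of the 64 RNA-seq libraries of the series, namely AI replicates 3 and 5 and control-AI replicates 1, 2 and 3. They were chosen as the libraries of both groups with at least 1000000 counts, and the 4 others, AI replicates 1, 2 and 4 and control-AI replicate 4, served only as a check. All plants were leafy cuttings of the single clone INRA 717-1B4 (Populus tremula x Populus alba), so the spread between libraries holds no genetic variation between trees. AI-plants received 100 µM NPA dissolved in 1 N KOH, and control-AI plants received 1 N KOH alone. The series also holds an arm sprayed with a cocktail of 3 µM NAA and 4.5 µM IBA (AE) with a 1 N KOH control of its own (control-AE), and both arms were sampled in stem and root at 11 days and at 24 h. The labels number the replicates of a group but do not say that each was a separate plant, so the p-values measure only the spread between these libraries.

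Auxin is made mainly in young leaves and shoot tips and moves down the stem from cell to cell through efflux carriers of the PIN family, which sit on the lower side of the cells. NPA binds these carriers and slows that stream, and it is widely used to ask which processes below the leaves depend on it. In woody stems the stream is known for setting cambial activity, the formation of xylem and the restraint of side buds. The question put to these libraries was which transcripts of the stem differed after NPA had been applied to the leaves. In such bulk tissue, fewer cells of a type and less RNA per cell cannot be told apart.

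Each library is a list of read counts on 62007 rows, mostly transcripts, with no gene name. The rows are written here as LOC with the gene identifier of the count table, and 23598 rows of 22612 gene identifiers passed the filter on low counts. The AI libraries held 13240438 and 11342379 counts and the control-AI libraries 8871251, 5479136 and 15756893. The 20 rows for large subunit ribosomal RNA, removed before any scaling, took 0.082% and 0.064% of the counts of the AI libraries. In control-AI replicates 1, 2 and 3 they took 0.347%, 11.4% and 0.354%. The ribosomal share given throughout is that of these rows alone. Other ribosomal RNA rows, where present, were kept. Control-AI replicate 2 thus stood apart, and the ribosomal share moved with the groups; its part in the results was not tested. In rows called higher at 24 h in the AE arm, AI replicates 3 and 5 stood at the level of 24 h stems although labelled 11 days. The shallow AI replicates 2 and 4 and control-AI replicate 4 stood at or near that level too. In rows called lower at 24 h there, AI replicates 3 and 5 summed to 2560 and 4618 CPM. The shallow AI replicates 1, 2 and 4 summed to 5089, 3668 and 4196 CPM, and the shallow control-AI replicate 4 to 4137 CPM. Control-AI replicates 1, 2 and 3 at 11 days spanned 3694 to 5399 CPM. AI replicate 3 and the shallow AI replicate 2 lay below that range, and the other libraries named lay inside it. A swap of labels or a shared harvest batch was not tested and could not be settled from the count files. All calls between AI-stems and control-AI stems rest on AI replicates 3 and 5. The tissue label held in the 5 libraries, since the summed level of the photosynthesis rows was 1901 and 2761 CPM (read counts per 1000000 counts of the library) in AI-stems and 1749 to 3122 CPM in control-AI stems, against 52.9 to 99.1 CPM in the 11-day roots, and the single root marker row reached at most 2.26 CPM in the stems.

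AI-stems differed from control-AI stems in few rows that passed the test. With the quasi-likelihood test of edgeR, adjusted by Benjamini-Hochberg at 0.05, 4 of 23598 rows were called, or 0.017%, and all 4 were higher in AI-stems. Before adjustment, 1028 rows (4.36%) were higher and 1105 rows (4.68%) were lower in AI-stems at p under 0.05. Levels of AI and control-AI libraries did not overlap in 3363 rows that were higher in AI-stems (14.3%) and in 3270 rows that were lower (13.9%). An exact permutation test of 2 against 3 libraries cannot give a p below 0.1 and was not used for single rows. The number of calls depended on every library: it was 2 without AI replicate 3, 0 without AI replicate 5, 0 without control-AI replicate 1, 2 without control-AI replicate 2 and 83 without control-AI replicate 3. DESeq2 called 349 rows in the same 5 libraries, 195 higher and 154 lower.

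The 4 called rows had no product name in the sources used here and are given by identifier and position. LOC7462135 lies on the minus strand at NC_037292.1:5079856-5082615 and has 5 exons. It stood at 42.8 and 52.1 CPM in AI-stems, against 2.03, 2.72 and 2.70 CPM in control-AI stems. The 2 AI libraries of the comparison were high and its 3 control-AI libraries low, with a wide gap between them. The log2 fold change was 4.26 ± 0.24 (SE; edgeR adjusted p = 0.0099; n = 2 and 3).

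LOC7487210, on the plus strand at NC_037303.1:2823610-2826039, also has 5 exons. Its level was 46.8 and 93.0 CPM in AI-stems, against 1.24, 1.36 and 2.57 CPM in control-AI stems. The AI libraries differed between themselves by more than for LOC7462135 but both lay far above every control of the comparison. The log2 fold change was 5.23 ± 0.43 (SE; edgeR adjusted p = 0.0376). LOC7478370, with 3 exons on the minus strand at NC_037287.1:8754444-8756823, was a weakly expressed row with 9.33 and 15.2 CPM in AI-stems, against 0.563, 0.226 and 0.314 CPM in control-AI stems. Its groups did not overlap either, and its log2 fold change was 4.98 ± 0.44 (SE; edgeR adjusted p = 0.0486).

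LOC18099024, a gene of 13 exons on the minus strand at NC_037289.1:4182417-4187110, was close to an on and off pattern. It had 18.4 and 19.8 CPM in AI-stems, against 0, 0 and 0.125 CPM in control-AI stems. These levels rest on 483 counts in the AI libraries and 2 counts in the control-AI libraries, a ratio of 289 with an exact binomial 95% interval of 79.6 to 2393 that covers counting error only. The edgeR adjusted p was 0.0138, and the fitted log2 fold change of 7.93 depends on the prior count and is no bound.

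In the other stem libraries of at least 1000000 counts these 4 rows were low at 11 days and high at 24 h. In the AE arm, which shares no library with the comparison of AI with control-AI, LOC7462135 stood at 3.74 to 11.0 CPM in AE-stems and 3.42 to 9.22 CPM in control-AE stems at 11 days, and at 23.7 to 59.6 CPM in AE-stems and 34.2 and 44.2 CPM in control-AE stems at 24 h. LOC7487210 was at most 4.79 CPM in the 8 libraries of the AE arm at 11 days and at least 48.2 CPM in its 5 libraries at 24 h. LOC18099024 had 0 CPM in all 5 AE-stems and at most 0.214 CPM in control-AE stems at 11 days, and 17.2 to 102.9 CPM in the AE arm at 24 h.

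For each of the 4 rows, both AI-stems at 11 days lay above all 8 libraries of the AE arm at 11 days. The same rows were also high in the 24 h stems of the AI arm whether or not NPA had been applied. LOC7462135 had 33.0 and 34.3 CPM in AI-stems and 33.5 and 29.9 CPM in control-AI stems at 24 h, and LOC7487210 had 71.0 and 56.7 CPM in AI-stems and 65.4 and 52.0 CPM in control-AI stems at that time. LOC7478370 had 8.3 and 5.5 CPM in AI-stems and 8.1 and 7.0 CPM in control-AI stems at 24 h, all below the 11-day AI-stems. LOC18099024 was uneven at 24 h, with 13.7 and 7.47 CPM in AI-stems and 34.7 and 4.62 CPM in control-AI stems. The 11-day control-AI stems were thus the low ones within the AI arm in these rows, and the 11-day AI-stems stood near or above most 24 h libraries.

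**Figure D1:**
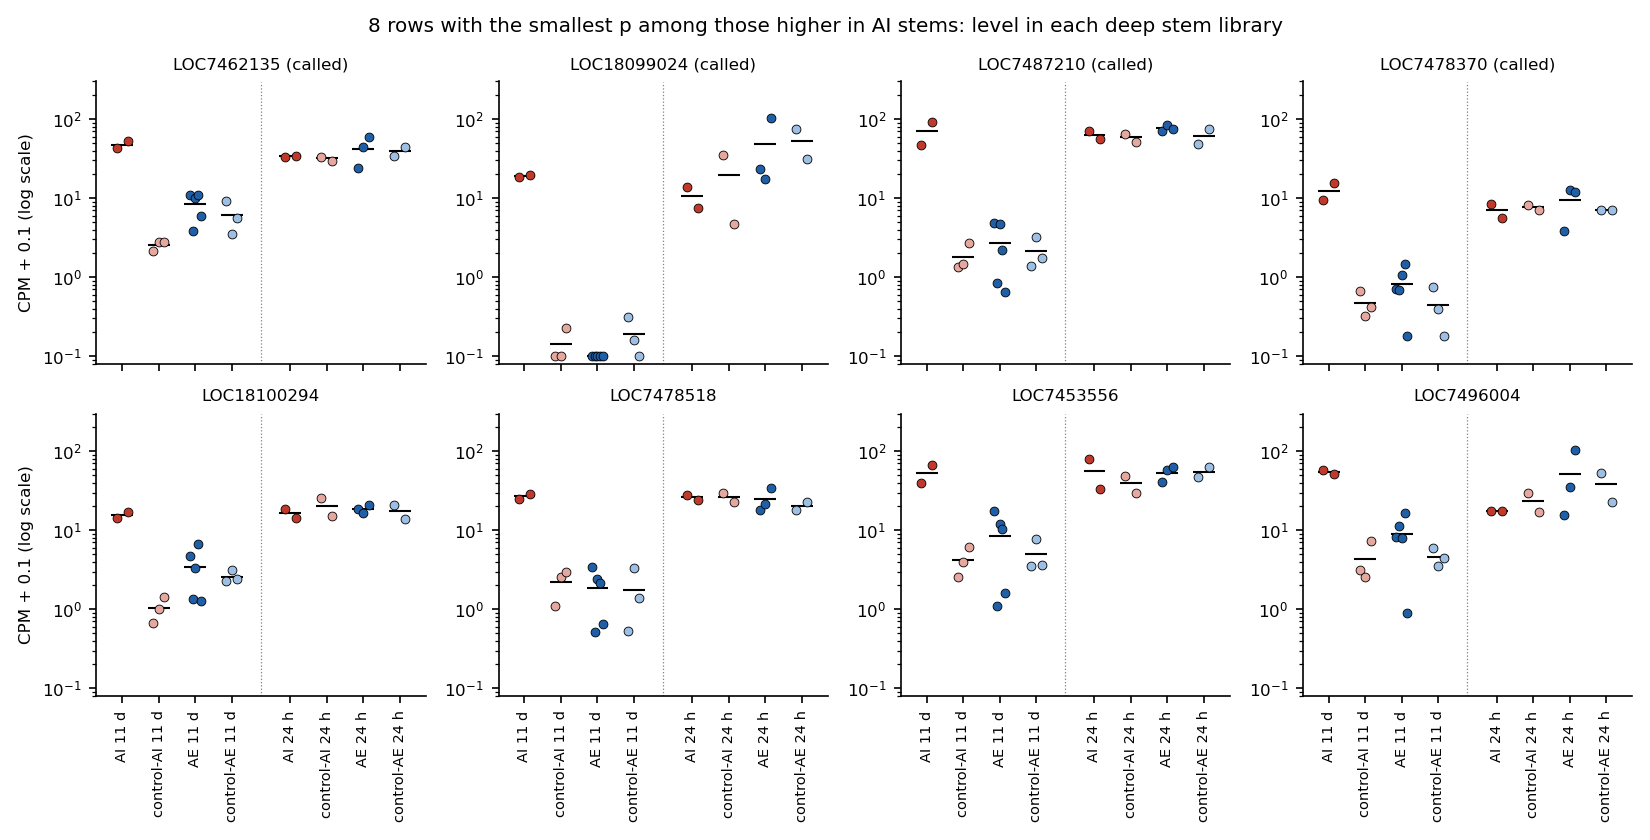
Level of the 4 called rows and of the 4 rows with the next smallest p among those higher in AI-stems, as CPM + 0.1 on a log axis, in each stem library with at least 1000000 counts. Points are libraries, lines are group means, and the dotted line parts the 11-day groups from the 24 h groups. LOC7462135 was at 42.8 and 52.1 CPM in 11-day AI-stems and at 2.03 to 2.72 CPM in 11-day control-AI stems, and all 24 h groups stood near the AI level.

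The 12 rows with the next smallest p among those higher in AI-stems did not pass the threshold and are given as values. LOC18100294 missed it narrowly with 14.3 and 16.9 CPM in AI-stems, against 0.563, 0.906 and 1.32 CPM in control-AI stems (log2 fold change 3.98 ± 0.37 SE, edgeR adjusted p = 0.0519). The strongest of them by level was LOC18096496, with 303 and 270.3 CPM in AI-stems, against 116, 98.7 and 120.5 CPM in control-AI stems (log2 fold change 1.36 ± 0.18 SE). LOC7453556, at NC_037303.1:2800572-2803859 on the same sequence as LOC7487210, had 39.7 and 66.6 CPM in AI-stems, against 2.48, 3.85 and 6.02 CPM in control-AI stems. The one row of the 12 with a product name was LOC7491869, an ABC transporter B family member 2. Proteins of this family move small molecules across membranes, and other members carry auxin out of cells in Arabidopsis. It stood at 15.6 and 18.9 CPM in AI-stems, against 4.50, 4.08 and 4.26 CPM in control-AI stems (log2 fold change 2.00 ± 0.24 SE, edgeR adjusted p = 0.101). At 24 h it stood at 16.4 and 13.5 CPM in control-AI stems.

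The 12 rows with the smallest p among those lower in AI-stems had adjusted p of 0.101 or more, and none had a product name. The first, LOC7497858, had 13.6 and 10.3 CPM in AI-stems, against 51.2, 66.1 and 51.2 CPM in control-AI stems (log2 fold change -2.22 ± 0.24 SE). LOC112328430 was the most strongly expressed, with 90.8 and 79.8 CPM in AI-stems, against 336, 238 and 205.5 CPM in control-AI stems (log2 fold change -1.61 ± 0.26 SE). Control-AI replicate 2 lay inside or close to the range of the other controls in both rows. Over the 28 rows named so far, the sign of the difference was the same in all 5 fits that left out 1 library. As the groups did not overlap in these rows, leaving out 1 library could hardly change the sign, and this is no separate support.

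**Figure D2:**
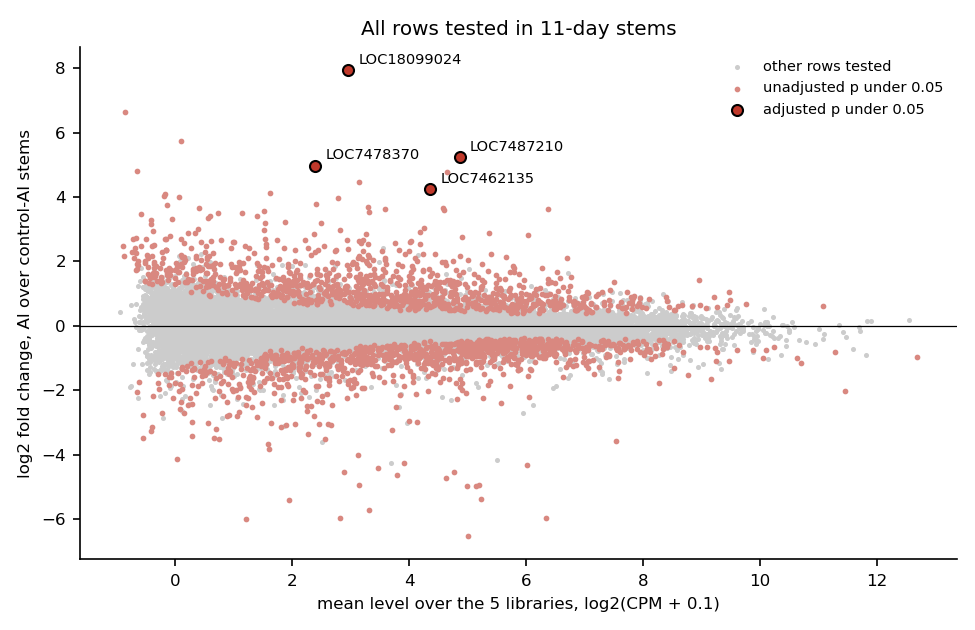
Difference of each of the 23598 rows tested, as the log2 fold change of AI over control-AI stems at 11 days, against its mean level over the 5 libraries as log2(CPM + 0.1). The 4 called rows are named and all lie above 0, and rows with an unadjusted p under 0.05 lie on both sides, 1028 above and 1105 below.

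The most negative fold changes came mostly from rows that were highest in 1 control library. Of the 28 rows whose log2 fold change was below -3.5, a limit chosen after the values were seen, 24 had their highest level of the 5 libraries in control-AI replicate 2, the library with 11.4% ribosomal counts. The summed level of the 28 rows was 68.2 and 41.4 CPM in AI-stems, against 564.3, 2551 and 375.2 CPM in control-AI replicates 1, 2 and 3. All control-AI libraries lay above both AI-stems in 20 of the 28, which were picked by fold change. The shallow libraries did not repeat the direction. There the 28 rows summed to 23283.6, 5215.7 and 8926.0 CPM in AI replicates 1, 2 and 4, against 5535.6 CPM in control-AI replicate 4. In 20 of the 28 rows, the highest AE-stem at 11 days was replicate 5 and the highest control-AE stem was replicate 1, which had the largest ribosomal shares of their groups at 22.1% and 7.59%. None of the 28 was called and none had a product name. Among them LOC4929726, LOC4929730 and LOC4929754 lie on NC_009143.1. LOC112327699, LOC112327701, LOC112327703 and LOC112327704 lie near each other on NC_037289.1. Only rows for large subunit ribosomal RNA had been removed, and whether some of the 28 are other ribosomal RNA was not tested. The 26 rows above 3.5 summed to 640.7 and 666.5 CPM in AI-stems, against 26.6, 36.7 and 59.8 CPM in control-AI stems. They too were picked by fold change in these libraries, so their sums had to part the groups. Of these rows, 12 were highest in AE replicate 5 among the AE-stems. In the shallow libraries these 26 rows summed to 92.5, 422.2 and 406.9 CPM in AI replicates 1, 2 and 4, against 370.8 CPM in control-AI replicate 4.

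The comparison with sampling time was then extended to all rows. Control-AE stems at 11 days and at 24 h (3 and 2 libraries) differed in 222 of 23170 rows (0.958%) by the quasi-likelihood test of edgeR, adjusted by Benjamini-Hochberg, and AE-stems (5 and 3 libraries) in 557 of 22678 rows (2.46%). All fold changes of time are coded as 24 h over 11 days, so that a positive value means higher at 24 h. The calls of the control-AE contrast fell to 0 without control-AE replicate 1, whereas the AE contrast had 439 calls without AE replicate 5.

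Rows that were higher in AI-stems at 11 days tended to be rows that were higher at 24 h in the AE arm. Of 984 rows higher in AI-stems at an unadjusted p under 0.05 and tested in both, 72 (7.32%) were called higher at 24 h in control-AE stems and 0 were called lower, where 128 of all 22679 shared rows (0.564%) were called higher and 91 (0.401%) lower. Of these 984 rows, 83.6% had a time difference above 0, against 50.9% of all shared rows. The excess was smaller in AE-stems, where 60.1% of such rows had a time difference above 0, against 48.7% of all shared rows. In AE-stems, 78 of 980 such rows (7.96%) were called higher at 24 h and 3 lower, where 294 of all 22418 shared rows (1.31%) were called higher and 255 (1.14%) lower. On the other side, 11 of 1076 rows lower in AI-stems (1.02%) were called lower at 24 h in control-AE stems and 7 higher, and 23 of 1064 (2.16%) were called lower in AE-stems.

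Across rows, the log2 fold change of AI over control-AI and that of 24 h over 11 days had a Pearson r of 0.404 and a Spearman rho of 0.366 in control-AE stems (22679 rows), and of 0.334 and 0.196 in AE-stems (22418 rows). These are descriptions across rows, which are not independent replicates and share their annotation, length and base composition. Leaving out each of the 5 libraries in turn, Pearson's r ranged between 0.285 and 0.474 in control-AE stems and between 0.254 and 0.366 in AE-stems. All 4 called rows were called higher at 24 h in both contrasts of the AE arm. Of the 12 next higher rows, 5 were so in control-AE stems and 4 in AE-stems, and of the 12 lower rows none was called in either contrast.

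The 45 rows called higher at 24 h in both contrasts of the AE arm gave the clearest view of single libraries. Their summed level was 1148 and 1018 CPM in AI-stems at 11 days, against 281.2, 264.7 and 496.4 CPM in control-AI replicates 1, 2 and 3. In the AE arm it was 211.7 to 381.5 CPM in AE-stems and 225.3 to 252.1 CPM in control-AE stems at 11 days. At 24 h it was 870.0 to 1952 CPM in the 9 stem libraries of all 4 groups. Both AI-stems at 11 days thus lay within the range of the 24 h stems, and the control-AI stems lay below it, with replicate 3 between the other controls and the AI-stems.

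Of these 45 rows, 44 had a log2 fold change of AI over control-AI above 0, with a median of 2.31, and the groups did not overlap in 36 that were higher (80.0%) and 1 that was lower (2.22%) in AI-stems, against 14.3% and 13.9% of all rows tested. The exception was LOC18100214, a peroxidase 21, at -1.12. Other members with a product name were glutaredoxin-C1, glutaredoxin-C11 and glutamate dehydrogenase 1, with differences of 1.87, 2.20 and 1.22. The set rests on both time contrasts and is empty without control-AE replicate 1. The 294 rows called higher at 24 h in AE-stems alone had a median of 0.273, and 35.7% of them did not overlap and were higher in AI-stems and 7.14% did not overlap and were lower, beside the same 14.3% and 13.9% of all rows. Without AE replicate 5 these shares were 37.5% and 7.14% of 224 rows.

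The 60 rows called lower at 24 h in both contrasts differed less between AI-stems and control-AI stems. Their median log2 fold change of AI over control-AI was -0.47, 53 lay below 0, and 10 (16.7%) did not overlap and were lower in AI-stems, a share near the 13.9% of all rows tested. Their summed level was 2560 CPM in AI replicate 3 and 4618 CPM in AI replicate 5, against 3694, 5399 and 4362 CPM in control-AI stems. The AI libraries disagreed here, and replicate 5 lay inside the range of the controls. Expressed as the median share of the time difference of each row, AI replicates 3 and 5 reached 1.01 and 0.868 in the 45 rows but 0.677 and 0.199 in the 60 rows, whereas control-AI replicates 1, 2 and 3 reached -0.074, -0.096 and 0.320 in the 45 rows and 0.354, 0.141 and 0.040 in the 60 rows. The 24 h stems of the AI arm were themselves little lower in the 60 rows, with summed levels of 2992 and 4029 CPM in AI-stems and 4093 and 4089 CPM in control-AI stems, against 1650 to 2510 CPM in the 24 h stems of the AE arm. Their median shares were 0.604 and 0.216 in AI-stems and 0.329 and 0.213 in control-AI stems at 24 h. AI replicates 3 and 5 of 11 days, at 0.677 and 0.199, lay close to the AI-stems of 24 h. Replicate 5 also lay among the control-AI stems of 11 days, however. As the 11-day and 24 h control-AI stems overlapped in this share, it does not part the times in the AI arm.

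**Figure D3:**
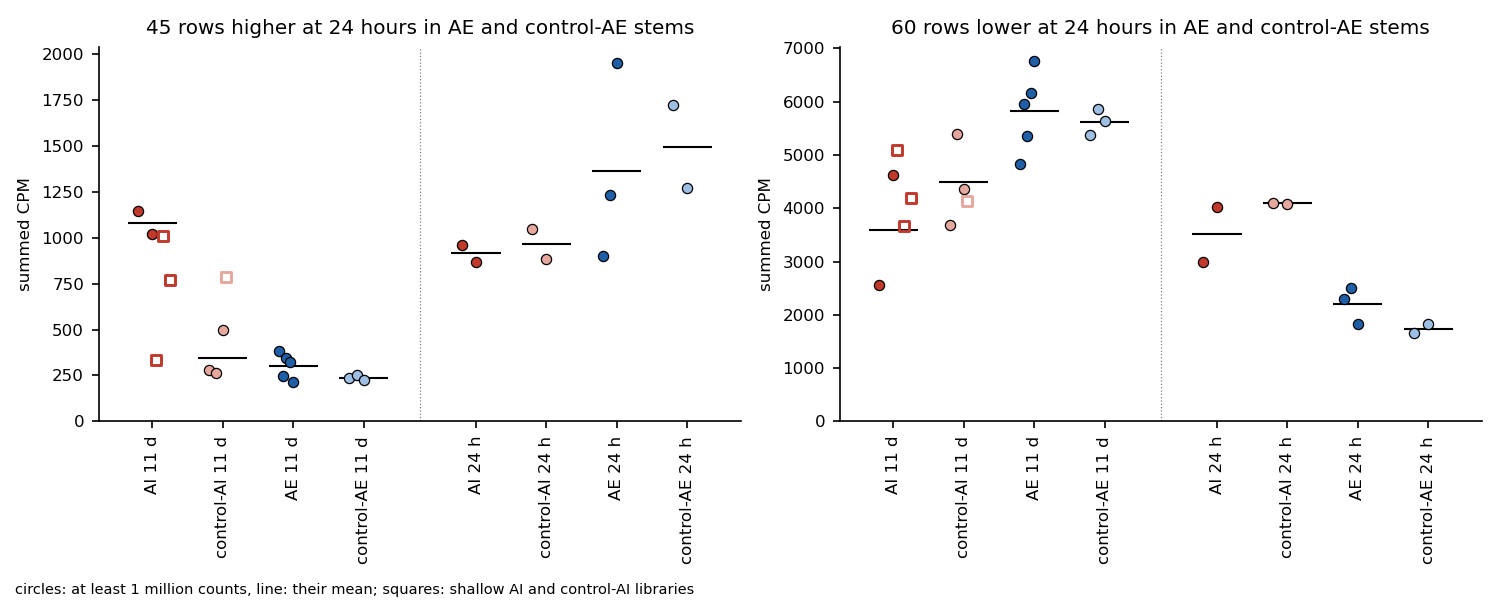
Summed CPM of the 45 rows called higher (left) and the 60 rows called lower (right) at 24 h in both AE-stems and control-AE stems, in every stem library. Circles are libraries of at least 1000000 counts with their mean as a line, and open squares are the shallow AI and control-AI libraries of 11 days. In the left panel the 11-day AI-stems stood at 1148 and 1018 CPM, among the 24 h stems, and the shallow control-AI library stood at 787.1 CPM.

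The 4 shallow libraries, with 160218 to 545250 counts, did not repeat the difference. The summed level of the 45 rows in AI replicates 1, 2 and 4 was 334.5, 1008 and 769.3 CPM, against 787.1 CPM in control-AI replicate 4 (exact Poisson 95% interval 653.1 to 940.5 CPM, counting error only, 121 counts). The shallow control thus lay among the AI-stems. For LOC7487210, the shallow AI libraries had 5.44, 27.2 and 44.5 CPM, against 71.6 CPM in the shallow control, which rests on 11 counts. For LOC7462135 they had 10.9, 31.8 and 12.7 CPM, against 19.5 CPM in the shallow control, which rests on 3 counts. Over the 2325 rows of at least 100 CPM, 44.8% had the same direction in the shallow libraries as in the 5 others, and over the 215 of them at an unadjusted p under 0.05, 43.3% had. The named rows at that level kept their direction with smaller differences. The log2 difference of LOC18096496 was 0.53 in the shallow libraries, against 1.36 in the 5 others, and that of LOC112328430 was -0.19, against -1.61, where AI replicate 1 at 182 CPM lay above the single shallow control at 163 CPM. The ribosomal share of the shallow libraries was 31.99%, 2.45% and 4.52% in AI replicates 1, 2 and 4 and 3.53% in control-AI replicate 4, and its part in this was not tested.

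The direct tests of time, tissue and spray arm were made on the difference of 2 effects. The effect of AI at 11 days minus that at 24 h was called in 4 of 23448 rows (0.0171%), namely LOC7462135, LOC7487210, LOC7478370 and LOC18100294. All 4 differences were above 0. At 24 h itself, AI-stems and control-AI stems differed in 0 of 22117 rows (0% called, 342 at an unadjusted p under 0.05 by edgeR). Within each group, 11 days and 24 h differed in 26 of 22643 rows (0.115%) in AI-stems and in 2 of 22566 rows (0.00886%) in control-AI stems, and these contrasts share libraries with the comparison of AI with control-AI. All 26 rows were lower at 24 h in AI-stems, and both rows of control-AI stems were higher at 24 h. Among the 26 were 3 of the 12 next higher rows, LOC7496004, LOC7496940 and LOC7471654. LOC7496004 stood at 57.2 and 51.1 CPM in AI-stems at 11 days and at 17.2 to 17.3 CPM in AI-stems at 24 h. In this row the 11-day AI-stems thus lay above the 24 h stems of their own group. At 24 h it also had 29.6 and 16.8 CPM in control-AI stems, and 15.6 to 104.5 CPM in AE-stems. Control-AE stems had 53.4 and 22.5 CPM at that time, so the 24 h stems of the AE arm spanned the 11-day AI level.

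In roots at 11 days, with 4 AI and 4 control-AI libraries, 0 of 22868 rows were called (0%, 884 at an unadjusted p under 0.05 by edgeR). The effect in stem minus that in root was called in 15 of 26066 rows (0.0575%), 12 higher and 3 lower in stem. Among them was LOC7478370, whose roots held 12.9 to 21.6 CPM under AI and 12.9 to 26.4 CPM under control-AI, close to the level of the AI-stems. LOC7462135 likewise stood at 31.3 to 58.4 CPM in AI-roots and 25.3 to 58.4 CPM in control-AI roots. LOC7487210 was nearly absent from roots, with at most 0.339 CPM under AI and 0.616 CPM under control-AI, and LOC18099024 had 0 CPM in all 8 root libraries. Over the 21383 rows tested in both tissues, the fold changes in stem and root had a Pearson r of 0.188, a description across rows.

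The AE spray called 0 of 23533 rows in 11-day stems against control-AE (0%, 864 at an unadjusted p under 0.05 by edgeR). The effect of AI minus that of AE was called in 0 of 25129 rows (0%, 812 at an unadjusted p under 0.05 by edgeR, 11 called by DESeq2 and 1 by edgeR with no filter on low counts). These counts do not show that the inhibitor and the auxin cocktail acted alike. Over 22922 rows tested in both, which come from separate libraries, the fold changes of AI and AE had a Pearson r of 0.276 and a Spearman rho of 0.378. Of 960 rows higher in AI-stems at an unadjusted p under 0.05, 845 (88.0%) had an AE fold change above 0, against 51.8% of all these rows. Control-AI and control-AE stems, which received the same 1 N KOH, differed in 0 of 22391 rows (0%, 718 at an unadjusted p under 0.05 by edgeR, 15 called by DESeq2).

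Genes of the auxin pathway were looked up by product name, which was at hand for 1876 of the rows tested. The lists hold 338 of these rows, of which edgeR called 0 and DESeq2 18. At an unadjusted p under 0.05 by edgeR, 24 listed rows (7.10%) were higher and 35 (10.4%) lower in AI-stems, against 4.36% and 4.68% of all rows tested and 4.10% and 8.37% of the rows with a product name. The median log2 fold change was -0.06 over the listed rows and -0.02 over all rows tested. The rows below are set between AI-stems and control-AI stems of 11 days, with 24 h levels for a few. The part of the time pattern in them was not tested.

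The carriers come first, as the targets of NPA. The PIN3 row, LOC7488396 (auxin efflux carrier component 3, NC_037292.1:8466557-8470587), stood at 158 and 135 CPM in AI-stems, against 86.3, 77.9 and 72.2 CPM in control-AI stems. PIN3 carries auxin sideways out of the stream in Arabidopsis. The groups did not overlap, and the log2 fold change of 0.90 ± 0.17 (SE) did not pass the test (edgeR adjusted p = 0.229). At 24 h the PIN3 row stood at 106 and 148.9 CPM in control-AI stems. The PIN6 row, LOC7492445, had 24.2 and 22.1 CPM in AI-stems, against 9.004, 9.74 and 22.6 CPM in control-AI stems, so that control-AI replicate 3 reached the AI level.

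Among the AUX/IAA repressors, which are broken down when auxin is perceived and whose genes are switched on by auxin, 4 of 5 rows lay above 0 with a median of 0.56. Auxin-induced protein 22D (LOC7476883) had the largest value with 2.92 and 1.81 CPM in AI-stems, against 0.900, 0.679 and 0.376 CPM in control-AI stems (log2 fold change 1.93 ± 0.52 SE), and is a weakly expressed row. The most strongly expressed, IAA16 (LOC7474609), stood at 509 and 421 CPM in AI-stems, against 311, 716 and 390 CPM in control-AI stems, and the groups overlapped. The 5 rows of response factors and receptors lay between -0.14 and 0.65, among them auxin response factor 6 (LOC7464667), a transcription factor that acts on auxin-responsive genes, with 205 and 189 CPM in AI-stems, against 169, 154 and 169 CPM in control-AI stems. Of the 3 SAUR rows, early auxin-responsive genes, SAUR71 (LOC7492101) was the strongest with 38.9 and 38.5 CPM in AI-stems, against 28.4, 47.3 and 39.5 CPM in control-AI stems.

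In auxin synthesis, the tryptophan aminotransferase row LOC7468758, an enzyme family of the first step from tryptophan, stood at 174 and 210 CPM in AI-stems, against 343, 299 and 308 CPM in control-AI stems. Its groups did not overlap and its log2 fold change was -0.72 ± 0.18 (SE; edgeR adjusted p = 0.342). YUCCA10 (LOC18111290), of the step that follows, had 9.62 and 14.2 CPM in AI-stems, against 7.77, 4.98 and 9.47 CPM in control-AI stems. The GH3 rows, whose enzymes join auxin to amino acids, overlapped between the groups. Taken over these lists, 16 of 20 auxin rows lay above 0 with a median of 0.42, where 47.5% of all rows tested lay above 0. At an unadjusted p under 0.05 by edgeR, 2 of the 20 were on the higher side and 1 on the lower. Of the rows with a product name, 4.10% and 8.37% were so.

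**Figure D4:**
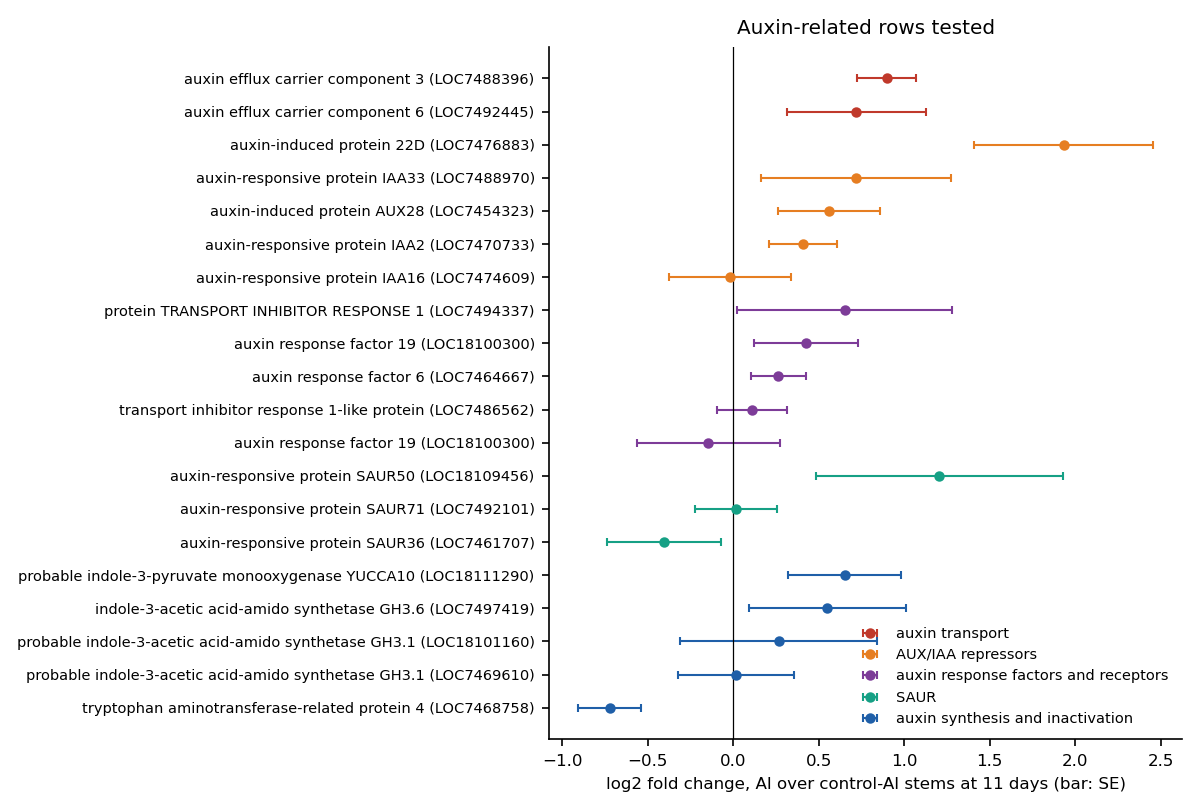
Log2 fold change of AI over control-AI stems at 11 days for the 20 auxin-related rows with a product name, with bars for 1 standard error (n = 2 and 3 libraries), coloured by list. Of these rows 16 lie above 0, from PIN3 at 0.90 and auxin-induced protein 22D at 1.93 to the tryptophan aminotransferase row at -0.72 below 0, and none passed the test.

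Lignin stiffens the walls of xylem, and its monomers are made in the phenylpropanoid pathway and joined in the wall by laccases and peroxidases. Among all rows with a product name, 4.10% had an unadjusted p under 0.05 by edgeR on the higher side and 8.37% on the lower. Of 23 rows of the lignin list, 4 (17.4%) were so on the higher side and 2 (8.70%) on the lower, and none was called. All 5 laccase-17 rows in it lay above 0, with values between 0.89 and 1.59. LOC7462337 had 37.4 and 46.2 CPM in AI-stems, against 14.2, 14.7 and 17.6 CPM in control-AI stems (log2 fold change 1.42 ± 0.21 SE, edgeR adjusted p = 0.153). At 24 h it had 30.25 and 29.01 CPM in control-AI stems. LOC7460825, which lies near it on NC_037295.1, had 11.0 and 15.2 CPM in AI-stems, against 4.73, 2.49 and 5.33 CPM in control-AI stems. Rows with the same product name may share reads where their sequences are alike, so that they are not separate evidence.

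Some enzymes that make the monomers lay on the other side. Trans-cinnamate 4-monooxygenase (LOC7464737), which adds a hydroxyl group to cinnamic acid, stood at 968 and 1148 CPM in AI-stems, against 2112, 1346 and 1379 CPM in control-AI stems. Cinnamoyl-CoA reductase 1 (LOC7493223), which commits precursors to lignin monomers, had 445 and 435 CPM in AI-stems, against 792, 706 and 611 CPM in control-AI stems, with no overlap (log2 fold change -0.68 ± 0.20 SE, edgeR adjusted p = 0.397). A probable cinnamyl alcohol dehydrogenase 9 (LOC7465014), of the last step to the monomers, went the other way with 28.1 and 27.99 CPM in AI-stems, against 4.50, 6.57 and 14.4 CPM in control-AI stems.

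Primary wall enzymes loosen and rebuild the wall of growing cells. Of their 27 rows, 17 lay above 0, where 47.5% of all rows tested did. At an unadjusted p under 0.05 by edgeR, 3 of the 27 (11.1%) were on the higher side and 2 (7.41%) on the lower, against 4.10% and 8.37% of the rows with a product name. A probable polygalacturonase (LOC7497216), which cuts pectin, was the strongest of them with 668 and 677 CPM in AI-stems, against 381, 416 and 570 CPM in control-AI stems. Putative expansin-A17 (LOC7478823) had the most negative value at -2.81 ± 0.61 (SE) but was weak, with 0.219 and 0.517 CPM in AI-stems, against 1.58, 3.62 and 2.76 CPM in control-AI stems.

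**Figure D5:**
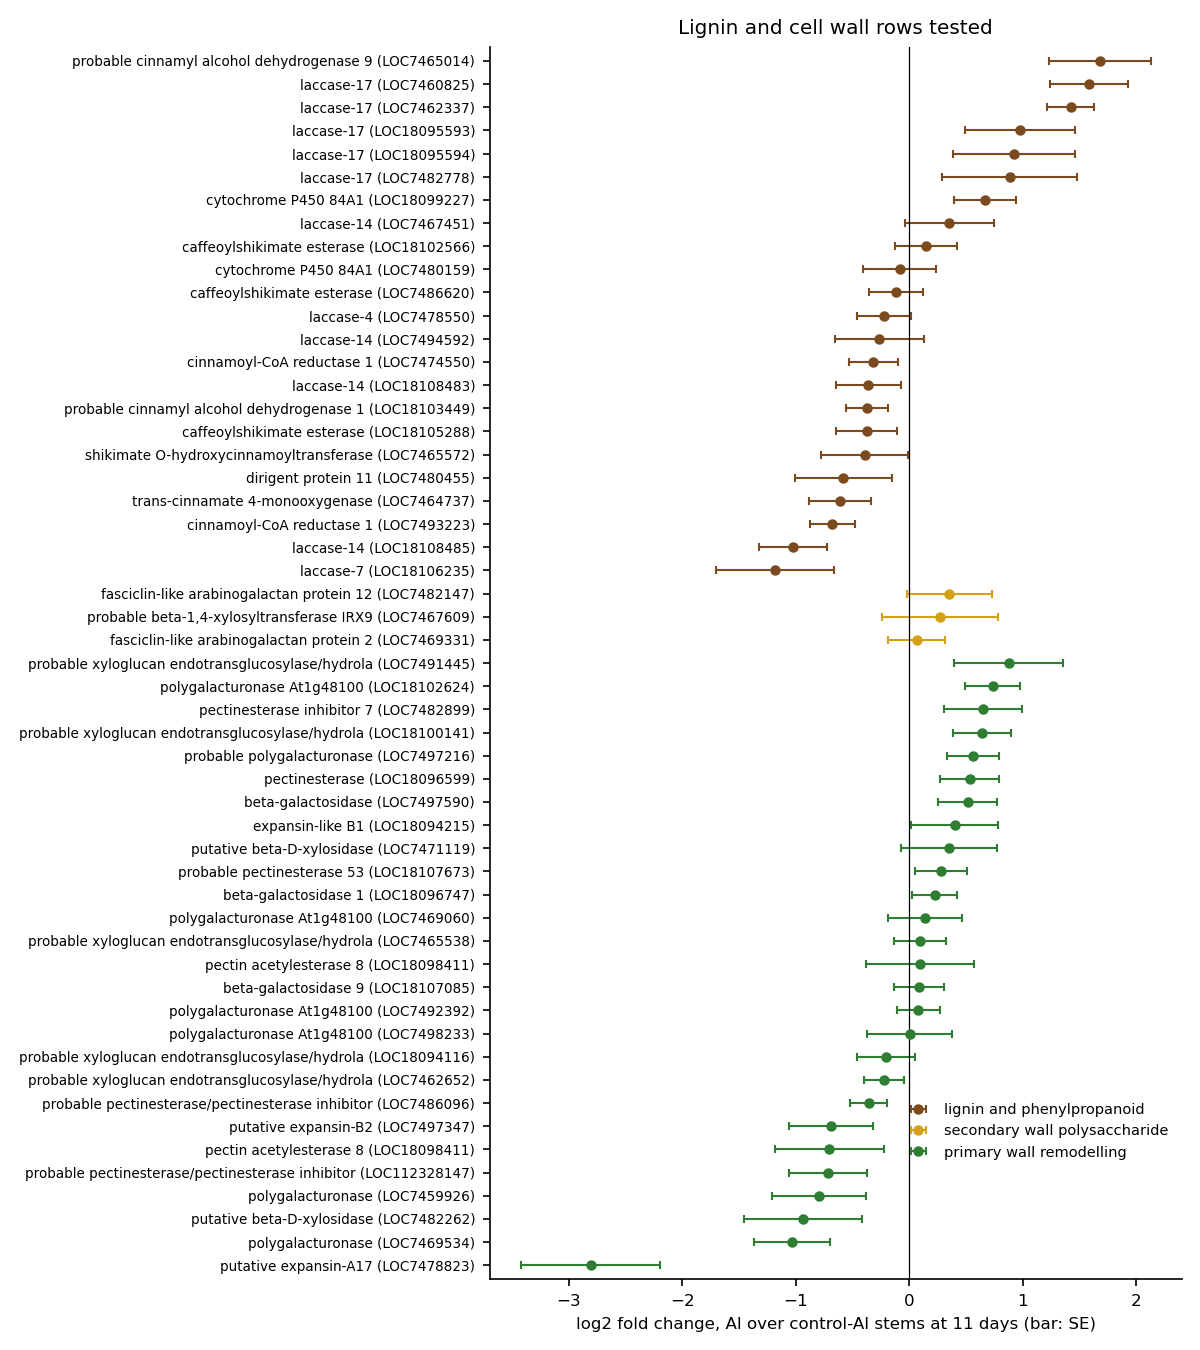
Log2 fold change of AI over control-AI stems at 11 days for the lignin, secondary wall and primary wall rows with a product name, with bars for 1 standard error (n = 2 and 3 libraries). The 5 laccase-17 rows lie between 0.89 and 1.59, cinnamoyl-CoA reductase 1 (LOC7493223) at -0.68 and expansin-A17 at -2.81, and none passed the test.

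Of the other hormones, ethylene had 1 row of 15 (6.67%) with an unadjusted p under 0.05 by edgeR on the higher side and 3 (20%) on the lower. Over all rows tested these shares were 4.36% and 4.68%, and over the rows with a product name 4.10% and 8.37%. The strongest ethylene row was an ACC oxidase (LOC7484327), the enzyme of the last step to ethylene, with 117 and 135 CPM in AI-stems, against 492, 621 and 184 CPM in control-AI stems (log2 fold change -1.78 ± 0.49 SE, edgeR adjusted p = 0.357). Control-AI replicate 3 again lay nearest to the AI-stems. A DAD2 strigolactone esterase (LOC7462847), whose petunia namesake perceives a hormone that restrains side buds, had 52.6 and 55.98 CPM in AI-stems, against 85.7, 93.1 and 63.9 CPM in control-AI stems. The 5 gibberellin and 7 jasmonate rows held none at an unadjusted p under 0.05, and the 8 cytokinin and 6 abscisic acid rows held 1 each, on the lower side.

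Sugar supply was described by 26 rows, 3 (11.5%) with an unadjusted p under 0.05 by edgeR on the higher side and 1 (3.85%) on the lower. Of the rows with a product name, 4.10% and 8.37% were so. Trehalose-phosphate phosphatase J (LOC7490222), which removes the phosphate from the sugar signal trehalose 6-phosphate, had 66.1 and 52.8 CPM in AI-stems, against 17.6, 19.02 and 25.03 CPM in control-AI stems (log2 fold change 1.53 ± 0.22 SE, edgeR adjusted p = 0.153). At 24 h it had 45.9 and 58.9 CPM in control-AI stems. The sucrose carrier SUC8 (LOC7467435) had 321 and 254 CPM in AI-stems, against 184, 192 and 166 CPM in control-AI stems. The groups did not overlap in either row. Bark storage protein A (LOC18104338), which holds nitrogen in poplar stems, had 297 and 247 CPM in AI-stems, against 69.5, 49.4 and 349 CPM in control-AI stems, so that 1 control exceeded both AI libraries.

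Of 17 water and osmotic stress rows, 4 (23.5%) had an unadjusted p under 0.05 by edgeR on each side. Of all rows tested, 4.36% were so on the higher side and 4.68% on the lower, and of the rows with a product name 4.10% and 8.37%. Lea5 (LOC7496687), a late embryogenesis abundant protein of dry tissue, stood at 441 and 305 CPM in AI-stems, against 207, 170 and 256 CPM in control-AI stems, while the aquaporin PIP1-2 (LOC7488009), a water channel, stood at 632 and 708 CPM in AI-stems, against 982, 1471 and 922 CPM in control-AI stems. Of 26 defence rows, 1 (3.85%) was so on the higher side and 4 (15.4%) on the lower, and of 32 detoxification rows 2 (6.25%) and 5 (15.6%). The transcription factor NAC72 (LOC7460841) had 87.9 and 48.2 CPM in AI-stems, against 221, 208 and 150 CPM in control-AI stems (log2 fold change -1.50 ± 0.31 SE, edgeR adjusted p = 0.259). At 24 h it had 104.5 and 101.1 CPM in control-AI stems.

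Markers of the cell types of a stem were summed by library. The 7 xylem marker rows, 5 of them the laccase-17 rows above, summed to 179.6 and 198.7 CPM in AI-stems and to between 73.8 and 152 CPM in control-AI stems, without overlap. Phloem markers summed to 54.3 and 55.9 CPM in AI-stems and 44.4 to 56.1 CPM in control-AI stems. Epidermis markers summed to 59.4 and 79.5 CPM in AI-stems and 46.4 to 56.6 CPM in control-AI stems, also without overlap. By single rows, 3 of the 7 xylem rows and 0 of the 3 epidermis rows were higher without overlap, where 14.3% of all rows tested were. The single periderm row stood at 15.5 and 16.6 CPM in AI-stems and 12.04 to 18.8 CPM in control-AI stems. None of these markers was called, and the part of a different share of xylem in the wall results was not tested.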

How the data were processed

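Polyadenylated RNA of 11-day stems was sequenced, and the authors trimmed, aligned and counted the reads; per the labels, the tools named are FastQC, STAR, Subread and featureCounts. The deposited values are raw counts per transcript row, with no normalization by the authors. The study's methods name a Phytozome release of the Populus trichocarpa genome, whereas the files use RefSeq sequence names; coordinates are given as in the files, with no release named there. Whether counting used strand is not stated, so that reads of overlapping or antisense genes cannot be told apart. Rows for large subunit ribosomal RNA (20 rows) were dropped before library sizes were computed.

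Counts were compared with edgeR 4.0.16 in R 4.3.3 (TMM scaling; filterByExpr at min.count 10 and min.total.count 15; glmQLFit and glmQLFTest) on libraries of at least 1000000 counts, with Benjamini-Hochberg adjustment at 0.05 over all rows tested. Differences of effects were tested as interactions. A call means an adjusted p under 0.05. Standard errors were derived as |log2 fold change| / sqrt(F). CPM use TMM-scaled library sizes, set so that the factors of the 5 libraries multiply to 1, and plain totals in the shallow libraries. Levels of different rows are not corrected for length. DESeq2 1.42.0, the study's tool, and limma 3.58.1 were alternatives. The edgeR fit of AI against control-AI was also run on counts simulated from its own means and dispersions. That run held no difference of time, batch or ribosomal share, so it cannot speak to their part in the calls. Tables and plots were made with Python 3.11.15, pandas 2.3.3, scipy 1.17.1 and matplotlib 3.10.9.

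The libraries, rows and lists were chosen with earlier results of these data known. Fewer than 10 rows passed the threshold, so the named rows are all of these and the 12 higher and 12 lower rows with the smallest p, and in each list those described are called members, up to 4 with the highest CPM per length, and members with a small unadjusted p, the last chosen after their values were seen. The tests of time in single groups, the rows shared by them, AI against both controls together, and the contrasts in roots, at 24 h and for AE were added after seeing the data. Product names come from the annotation column of a shortened supplementary table of the study and cover 1876 rows tested. Per-library deviations of samples with the same replicate number correlated between -0.229 and 0.142 across rows, and numbers were not taken as pairs. In groups this small, these values cannot settle whether same-numbered stems and roots came from the same plant.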

Additional observations from a re-analysis of the deposited data

Results flagged for a closer look

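The effect of AI in 11-day stems differed from that in 11-day roots in 15 rows by edgeR's quasi-likelihood test of the interaction with Benjamini-Hochberg adjustment. The differences of log2 fold changes, stem minus root, were 4.22 ± 0.42 for LOC7462135 (adjusted p = 0.00186), 5.73 for LOC7487210, 5.03 for LOC7478370, 3.79 for LOC7496004, 1.84 for LOC7460939 and 5.90 for LOC7491462. They were 1.50 for LOC7497272, 2.44 for LOC7477158, 2.46 for LOC7489684, 2.34 for LOC7496907, 1.63 for LOC18098297 and 2.88 for LOC7473876, a licodione synthase. The 3 rows below 0 were LOC4929673 at -2.77, LOC7489673 at -1.48 and LOC18102968 at -1.72. The adjusted p of the 15 rows lay between 0.00186 and 0.0498.

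The effect of AI in stems at 11 days differed from that at 24 h in 4 rows by the same test. The differences, 11 days minus 24 h, were 4.17 for LOC7462135 (adjusted p = 0.00159), 5.09 for LOC7487210 (0.0319), 5.10 for LOC7478370 (0.0354) and 4.29 for LOC18100294 (0.046).

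The share of ribosomal counts was 22.1% in AE replicate 5 of the 11-day stems, far from the 0.098% to 0.169% of the 4 other AE-stems by Dixon's criterion, which flags about 1 group in 20 by chance and was applied to 21 groups of values.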

How the results depend on the processing

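The 4 calls of AI against control-AI became 349 with DESeq2, 236 with no filter on low counts, 2 with limma voom, 12 in a joint fit of all deep 11-day stems, 7 with all 9 libraries, and, added after seeing the data, 58 against both control groups pooled and 21 against these without control-AI replicate 2. Leaving out each library gave 0 to 83 calls. Over median-of-ratios factors, no filter, DESeq2 and the joint fit, all 4 rows stayed called, and limma voom kept 2 of them. The called rows kept a log2 fold change above 0 in all 9 alternatives computed per row, at 3.47 to 4.39 for LOC7462135 (adjusted p of edgeR or DESeq2 from 3.27e-34 to 0.1385), 4.07 to 5.76 for LOC7487210 (1.62e-24 to 0.223) and 4.58 to 5.34 for LOC7478370 (3.31e-12 to 0.623). The adjusted p of LOC18099024 ranged from 9.26e-12 to 0.1385. LOC7462135 was called in 7 of the 9 and each of the others in 5. The 15 calls of stem minus root became 143 with DESeq2, 9 with limma voom and 4 to 272 when each of the 5 stem libraries was left out. The 4 calls of 11 days minus 24 h became 81 with DESeq2, 53 with no filter, 1 with limma voom and 1 to 94 when each of the 5 libraries of 11 days was left out; root and 24 h libraries were not left out. The 0 calls of AI minus AE became 11 with DESeq2 and 1 with no filter, and the 0 of control-AI against control-AE became 15 with DESeq2. The 222 calls of time in control-AE stems became 0 without control-AE replicate 1. The 0 calls in the lists became 18 with DESeq2 and 1 in the joint fit. The cause of these changes was not tested.

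With the replicate number as a block, the calls were 28 for AI against control-AI in all 9 libraries, 0 for stem minus root, 0 for 11 days minus 24 h, 225 for AI minus AE and 0 for the controls. Deviations of same-numbered libraries were weakly correlated, but the groups are too small to settle whether such samples came from the same plant.

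Depth limits the check in the shallow libraries, where 3 counts are 8.16 to 19.5 CPM, so that 3 of the 4 called rows were near or under that limit there. With 2 AI libraries, the spread within that group rests on 1 difference.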

Other observations

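Some groups of rows not described above held members whose levels did not overlap between the groups, and none of these was called by edgeR. Nitrate and peptide transporters went both ways, with NRT1/PTR family 1.2 (LOC7470568) at 361 and 256 CPM in AI-stems, against 142, 170 and 185 CPM in control-AI stems, and family 2.9 (LOC7487840) at 35.6 and 31.7 CPM in AI-stems, against 59.1, 61.4 and 40.5 CPM in control-AI stems. The glutamine synthetase row LOC7486383, an enzyme that takes up ammonium, had 130 and 213 CPM in AI-stems, against 313, 414 and 230 CPM in control-AI stems. The clock transcription factor REVEILLE 7 (LOC7485192) had 33.2 and 24.98 CPM in AI-stems, against 53.9, 60.0 and 46.2 CPM in control-AI stems, and the cell cycle inhibitor SMR6 (LOC7460759) had 58.9 and 57.6 CPM in AI-stems, against 124, 117 and 66.6 CPM in control-AI stems. The 13 photosynthesis rows held none at an unadjusted p under 0.05, with a median log2 fold change of -0.14, and the 7 housekeeping rows likewise, with a median of -0.02.

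Over all rows, each library's log2 level was set against the mean of the 5 stem libraries of the AE arm at 24 h (23598 rows, a description across rows). Pearson's r was 0.981 and 0.980 for the AI-stems at 11 days, against 0.960, 0.944 and 0.975 for control-AI replicates 1, 2 and 3, and it was 0.946 to 0.977 for AE-stems and 0.954 to 0.974 for control-AE stems of 11 days. The lowest r in control-AI stems, AE-stems and control-AE stems was that of control-AI replicate 2, AE replicate 5 and control-AE replicate 1, which had ribosomal shares of 11.4%, 22.1% and 7.59% and the fewest counts of their groups (5479136, 3947526 and 5360991). The part of ribosomal share and depth in r was not tested.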
